A study of Mus musculus with 6 samples.

Results

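The WNT5A signalling set comprised 10 genes, with Wnt5a as the ligand gene and Ror1, Ror2, Fzd1, Fzd2 and Fzd7 as receptor genes. The rest were the secreted antagonist and related genes Sfrp1, Sfrp2, Dkk2 and Dkk3. All 10 were chosen by their GENCODE M21 symbols from the 43346 genes of the deposited count table. Each was found and passed the filter on low counts. Expression was measured by RNA sequencing of ribosomal-RNA-depleted total RNA from primary mouse embryonic fibroblasts (MEFs), cells grown from C57BL/6 mouse embryos and used at passage 9. One group of 3 libraries came from MEFs given 3 µM erastin for 24 h. The other 3 libraries came from MEFs given DMSO, a common solvent, for which the protocol states no separate time. Erastin blocks cystine uptake through the cystine/glutamate antiporter and is used to induce ferroptosis, an iron-dependent form of cell death. All the cells were grown in the same medium with serum and 2-mercaptoethanol. The labels do not say whether the libraries of a group came from separate embryos or cultures, so p-values measure the spread between these libraries, which may be technical.

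WNT proteins are secreted lipid-modified ligands that bind frizzled receptors on neighbouring cells. WNT5A is best known for signalling without β-catenin, through frizzleds and the single-pass receptors ROR1 and ROR2, and in embryonic mesenchyme it guides outgrowth and cell polarity. Secreted frizzled-related proteins (SFRPs) bind WNTs outside the cell. Dickkopf proteins such as DKK2 bind the LRP5 and LRP6 co-receptors of the β-catenin branch, whereas DKK3 is a divergent relative whose effect on WNT signalling is less settled.

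Promoter sequences are shown first for receptor genes that were lower with erastin, Ror1, Ror2 and Fzd1, and for Fzd7, a close relative of Fzd1 that was not called. Each runs from 250 bases before to 50 after the RefSeq start of the gene (build GRCm38.p6), read on the gene's strand, at chr4:100095541-100095840 (+), chr13:53286075-53286374 (-), chr5:4758167-4758466 (-) and chr1:59481897-59482196 (+). The windows of Fzd1 and Fzd7 lie wholly before the GENCODE starts of these genes, whereas those of Ror1 and Ror2 span theirs. RefSeq promoters were found for 6 of the 10 genes. Those of Wnt5a, Fzd2, Sfrp1 and Dkk3 were not used here. Capitals mark matches on either strand to the GC box GGGCGG, the CCAAT box CCAAT and the TATA box TATAAA.
Ror1: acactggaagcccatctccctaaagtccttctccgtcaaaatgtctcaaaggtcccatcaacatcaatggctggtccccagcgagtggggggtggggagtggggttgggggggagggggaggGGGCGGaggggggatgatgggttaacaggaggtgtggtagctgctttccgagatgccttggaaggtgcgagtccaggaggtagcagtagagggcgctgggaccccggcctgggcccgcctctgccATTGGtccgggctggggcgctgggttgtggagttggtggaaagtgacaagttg
Ror2: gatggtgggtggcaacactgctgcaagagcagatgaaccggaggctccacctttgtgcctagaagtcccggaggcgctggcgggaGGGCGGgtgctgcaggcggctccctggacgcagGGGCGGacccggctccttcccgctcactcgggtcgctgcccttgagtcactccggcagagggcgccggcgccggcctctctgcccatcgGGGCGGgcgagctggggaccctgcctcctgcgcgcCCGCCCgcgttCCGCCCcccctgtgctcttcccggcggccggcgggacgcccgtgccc
Fzd1: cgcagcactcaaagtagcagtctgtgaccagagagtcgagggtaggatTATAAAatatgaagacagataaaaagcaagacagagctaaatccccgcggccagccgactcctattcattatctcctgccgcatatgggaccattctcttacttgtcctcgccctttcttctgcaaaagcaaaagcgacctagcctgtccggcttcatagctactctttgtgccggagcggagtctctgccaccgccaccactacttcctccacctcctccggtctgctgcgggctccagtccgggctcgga
Fzd7: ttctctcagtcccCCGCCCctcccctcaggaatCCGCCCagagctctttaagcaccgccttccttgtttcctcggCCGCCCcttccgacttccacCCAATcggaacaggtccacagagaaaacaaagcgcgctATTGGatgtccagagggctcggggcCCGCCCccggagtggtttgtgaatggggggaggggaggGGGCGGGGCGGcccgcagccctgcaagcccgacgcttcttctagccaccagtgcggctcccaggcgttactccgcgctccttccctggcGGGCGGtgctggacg

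Ror2 and Fzd7 had the promoters richest in guanine and cytosine among these sequences, at 74.7% and 66.7%, against 62.3% for Ror1, 54.0% for Fzd1 and a median of 52.7% over 32851 promoters. This background, called all promoters here, held only promoters of the same length and left out those of a single chromosome. The GC box matched 5 times in Ror2, 7 times in Fzd7 and 1 time in Ror1, and 35.7% of all promoters held it at least 1 time. In Fzd7, 2 of the matches share a base and are marked as 1 run of capitals. The CCAAT box matched 2 times in Fzd7 and 1 time in Ror1, against 37.4% of all promoters. The TATA box matched 1 time in Fzd1, against 13.6%. Sfrp2 held none of these, and Dkk2 held 2 GC boxes, 1 CCAAT box and 1 TATA box. No base of the 6 promoters lay in matches to more than 1 motif. The TCF/LEF core CTTTGAT, the antioxidant response element TGACNNNGC, the amino acid response element TGATGNAA and the E2F site TTTCCCGC were not matched on either strand of the 6 promoters. They occurred in 3.73%, 12.4%, 3.97% and 1.07% of all promoters. A match describes letters in the window and does not show a bound site.

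Total counts ran from 13333911 to 18505571 in DMSO and from 16800789 to 20509970 in erastin libraries. In a principal component analysis the second component, with 14.5% of the variance, set DMSO replicate 3 (-43.9) far from the remaining DMSO libraries (30.6 and 19.7). All 12 fibroblast markers on the list used, Col1a1, Vim and Thy1 among them, were expressed above the filter and tested. Of these, 10 were lower with erastin and the other 2 did not pass, and their summed level ran from 38930 to 42280 counts per 1000000 (CPM) in DMSO and from 28230 to 30030 CPM with erastin. Of 5 smooth muscle and pericyte markers 3 were lower and 1 higher, with sums of 5535 to 6032 CPM in DMSO and 3878 to 4243 CPM with erastin. Of 7 endothelial markers 3 could be tested and 2, Kdr and Tek, were higher. Their sums were 5.15 to 7.70 CPM in DMSO and 14.1 to 17.6 CPM with erastin, Cldn5 had no read, and the mean of Pecam1 was 0.0947 CPM in DMSO and 0.372 CPM with erastin. Summed leukocyte markers ran from 22.6 to 43.3 CPM in DMSO and 27.1 to 56.7 CPM with erastin, and none of 6 tested passed. Epithelial markers summed to 2.18 to 3.25 and 2.18 to 3.71 CPM, and the 1 tested did not pass. Skeletal muscle markers summed to 37.6 to 45.9 and 65.2 to 69.4 CPM, of which Des was the 1 tested and was higher. Neural markers summed to 137 to 175 and 135 to 158 CPM, with 1 of 3 tested higher and 1 lower. Adipocyte markers summed to 23.7 to 30.8 and 28.0 to 39.4 CPM, with 1 of 3 tested higher and Adipoq without a read.

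After 24 h with erastin, transcripts of 9 of the 10 genes were lower than in DMSO, and those of Fzd7 were not called. The ligand Wnt5a stood at 39.3% of its DMSO level, Ror1 at 35.3% and Ror2 at 51.8%. The SFRP and Dickkopf genes stood between 23.7% (Dkk3) and 50.7% (Dkk2). Among the frizzleds, Fzd2 was at 37.4%, Fzd1 at 57.6% and Fzd7 at 87.0%. A gene was called where edgeR's quasi-likelihood test, adjusted over the 14000 genes tested, gave p under 0.05. By that rule 43.0% of all genes tested were called, 21.5% lower and 21.6% higher. Among the 10846 genes at least as abundant as Sfrp2, the scarcest of the 10, 51.1% were called and 24.9% were called lower. None of the 10 was higher, either at an unadjusted p-value under 0.05 (0 genes, against 10 lower) or by DESeq2 or limma voom (0 genes each). The median log2 fold change of the 10 genes was -1.38, against -0.0014 for all genes tested. The 10 genes were chosen with earlier results of these data known. Their count and median beside those of all genes therefore describe the set and do not test it. The groups did not overlap in 9 of the 10 genes. Over all genes tested, 52.5% had groups that did not overlap, and 25.9% had all 3 erastin libraries under all 3 DMSO libraries. In these bulk libraries, fewer cells of a type and less RNA per cell cannot be told apart. Of the 12 fibroblast markers 10 were lower over the same libraries, and their part in these changes was not tested. Without DMSO replicate 3, the same number of 9 genes passed, with log2 fold changes from -2.01 to -0.74.

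**Figure D1:**
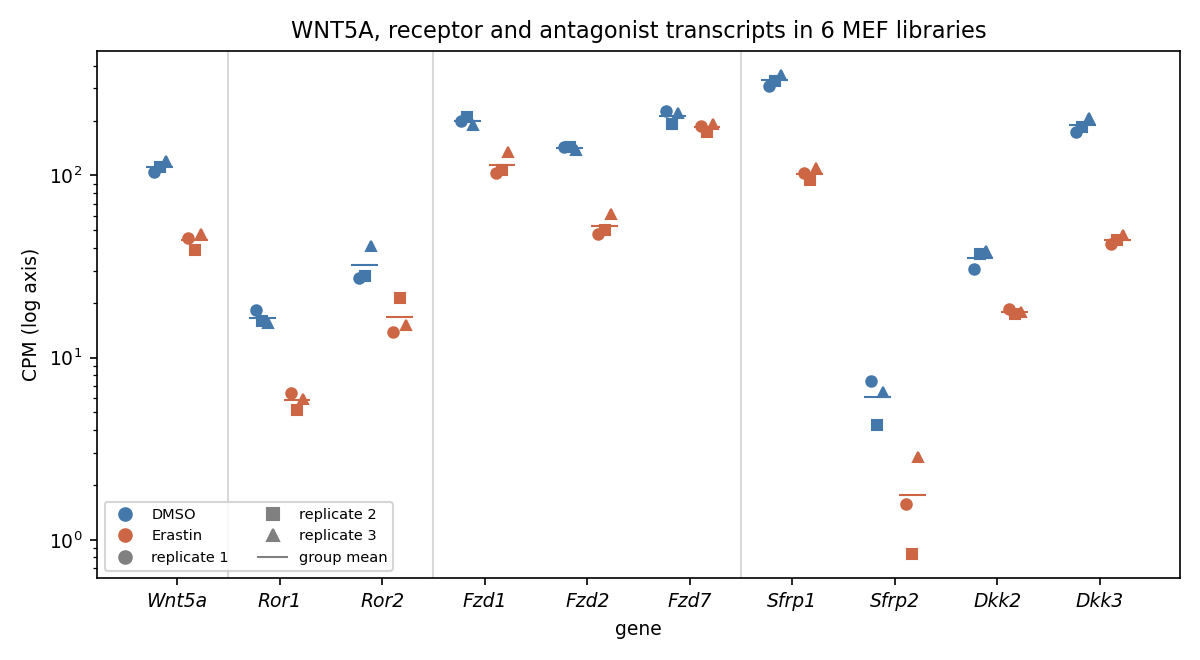
Level of each of the 10 genes in CPM (log axis) in every library, with DMSO in blue, erastin in orange, 1 symbol per replicate and a line at each group mean. Erastin points lie below all DMSO points for every gene except Fzd7, whose 3 erastin values of 173 to 193 CPM reach into the DMSO range of 191 to 226 CPM.

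Wnt5a (ENSMUSG00000021994.10; GRCm38 chromosome 14, 28504750 to 28527448, + strand, 7 exon blocks) was read at 105, 111 and 120 CPM in DMSO replicates 1, 2 and 3, and at 45.1, 39.1 and 47.6 CPM in the erastin replicates. The groups were far apart compared with the spread within each. Its means were 112 ± 7.72 and 43.9 ± 4.36 CPM (SD, n = 3 each), a log2 fold change of -1.35 (SE 0.10, 95% confidence interval -1.55 to -1.14, edgeR adjusted p = 6.75e-08). An antisense gene on the other strand, Gm2670, shares 4.58% of its exon bases and had 9 to 29 reads per library, against 654 to 2002 for Wnt5a. Whether counting used the strand is not given in the sources used here.

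Wnt5b, the ligand closest to WNT5A, was far scarcer, with 10 to 86 reads per library. Its mean level was 3.30 ± 1.28 CPM in DMSO and 1.87 ± 1.28 CPM with erastin (SD, n = 3 each), a log2 fold change of -0.82 that did not pass (95% confidence interval -1.98 to 0.34, edgeR adjusted p = 0.243). The log2 ratio of Wnt5b to Wnt5a counts within a library was -5.13 ± 0.55 in DMSO and -4.86 ± 1.40 with erastin (SD, n = 3 each), and the groups overlapped (exact permutation test, two-sided, p = 0.8, adjusted over 6 ratios 0.8).

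The ROR receptors are tyrosine-kinase-like proteins whose cysteine-rich domain binds WNT5A. Ror1 (ENSMUSG00000035305.5; GRCm38 chromosome 4, 100095791 to 100444765, + strand) was read at 18.3, 15.9 and 15.4 CPM under DMSO and at 6.37, 5.14 and 5.96 CPM with erastin. All erastin values were less than the lowest DMSO value by a wide margin, and the log2 fold change was -1.50 (SE 0.19, 95% confidence interval -1.90 to -1.10, edgeR adjusted p = 1.48e-05). Ror2 (ENSMUSG00000021464.10; GRCm38 chromosome 13, 53109312 to 53286124, - strand) was read at 27.5, 28.2 and 40.9 CPM in DMSO and at 13.9, 21.2 and 15.0 CPM with erastin. Its libraries were spread more widely, with DMSO replicate 3 high among the controls and erastin replicate 2 nearest to them, but the groups did not overlap. The log2 fold change of Ror2 was -0.95 (SE 0.19; 95% confidence interval -1.34 to -0.55, edgeR adjusted p = 0.000794). It was -0.74 without DMSO replicate 3 (edgeR adjusted p = 0.00328).

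Whether the ROR receptors fell unequally could not be settled. The log2 ratio of Ror2 to Ror1 counts was 0.58, 0.83 and 1.41 in DMSO and 1.12, 2.04 and 1.33 in erastin replicates 1, 2 and 3. The difference in means was 0.56, the groups overlapped, and the exact permutation test gave p = 0.3 (two-sided, adjusted over the 6 ratios tested 0.45). With 3 libraries against 3 this test cannot go below 0.1, so no ratio could pass it.

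**Figure D2:**
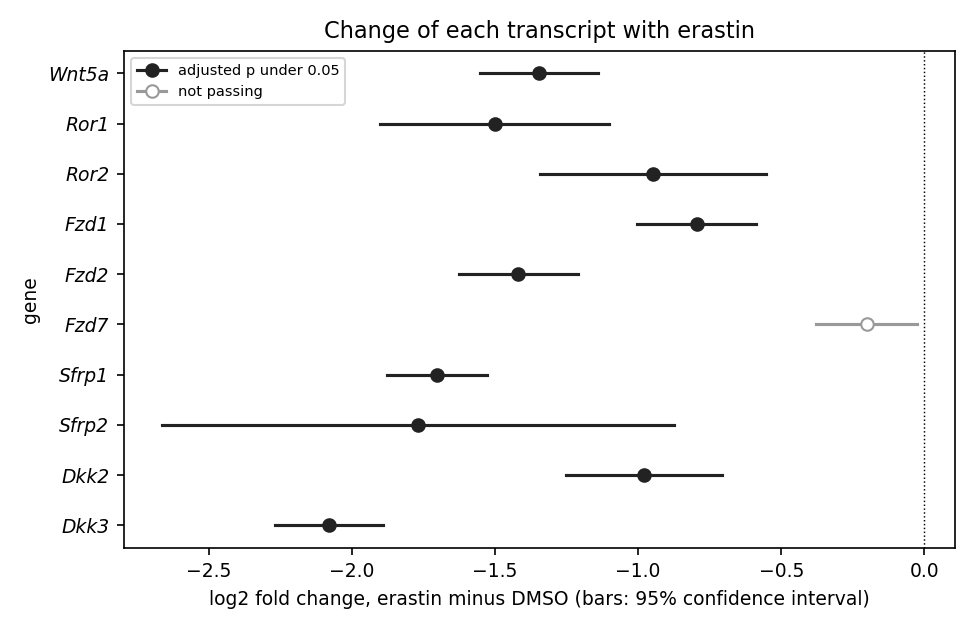
Log2 fold change of each gene, erastin minus DMSO, with bars for the 95% confidence interval and an open circle for the gene that did not pass. Dkk3 is at -2.08 and Fzd7 nearest to 0 at -0.20, and Sfrp2 has the widest interval, which includes the value of Dkk3.

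FZD1, FZD2 and FZD7 form 1 close branch of the frizzled family, seven-pass receptors for WNT ligands, and each is encoded by a single exon. Fzd2 (ENSMUSG00000050288.6; GRCm38 chromosome 11, 102604396 to 102608058, + strand) was read at 143, 144 and 138 CPM in DMSO and at 47.6, 49.98 and 61.2 CPM with erastin. The DMSO values were nearly equal, and all erastin values were less than those by more than the spread within either group (log2 fold change -1.42, SE 0.10, 95% confidence interval -1.63 to -1.21, edgeR adjusted p = 4.45e-08). Fzd1 (ENSMUSG00000044674.5; GRCm38 chromosome 5, 4753839 to 4758035, - strand) was read at 200, 208 and 189 CPM in DMSO and at 103, 106 and 134 CPM with erastin. Erastin replicate 3 was the highest of its group for Fzd1, Fzd2 and Fzd7 and remained under every DMSO library for Fzd1 and Fzd2. The log2 fold change of Fzd1 was -0.79 (SE 0.10; 95% confidence interval 49.9% to 66.6% of the DMSO level, edgeR adjusted p = 1.18e-05).

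Fzd7 (ENSMUSG00000041075.8; GRCm38 chromosome 1, 59482424 to 59486955, + strand) was read at 226, 191 and 219 CPM under DMSO and at 186, 173 and 193 CPM under erastin. Erastin replicate 3 lay above DMSO replicate 2, so the groups overlapped. The log2 fold change was -0.20 (SE 0.08) and missed the threshold (unadjusted p = 0.0274, edgeR adjusted p = 0.061). Its 95% confidence interval, -0.38 to -0.026, corresponds to 77.0% to 98.2% of the DMSO level. Fzd7 passed as lower without DMSO replicate 2 (log2 fold change -0.27, edgeR adjusted p = 0.028), with upper-quartile factors (-0.26, edgeR adjusted p = 0.0208) and with DESeq2 (-0.20, adjusted p = 0.0407).

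Frizzled levels were also compared as ratios within a library, which do not depend on how libraries are scaled. The log2 ratio of Fzd2 to Fzd7 counts was -0.66, -0.41 and -0.67 in DMSO and -1.97, -1.79 and -1.65 with erastin, a difference of -1.23 with no overlap. That of Fzd1 to Fzd7 was -0.17, 0.13 and -0.21 in DMSO and -0.85, -0.70 and -0.52 with erastin, a difference of -0.60 with no overlap. Both had the smallest p the design allows and did not pass (exact permutation test, two-sided, p = 0.1, adjusted 0.2). Per kilobase of exon, Fzd7 made up 36.5%, 32.1% and 36.9% of the summed Fzd1, Fzd2 and Fzd7 level in DMSO and 52.2%, 49.4% and 46.6% with erastin. The share of Fzd2 went from 29.1% ± 0.784 to 17.5% ± 0.927 (SD, n = 3 each), while that of Fzd1 overlapped between groups, at 35.7% ± 1.88 and 33.1% ± 1.90. The summed level of these 3 genes was 133 ± 3.10 CPM per kb in DMSO and 82.4 ± 7.67 CPM per kb with erastin (SD, n = 3 each). They made up 89.3% ± 0.758 of the level of all 10 frizzled genes in DMSO and 86.4% ± 0.814 with erastin (SD, n = 3 each).

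**Figure D3:**
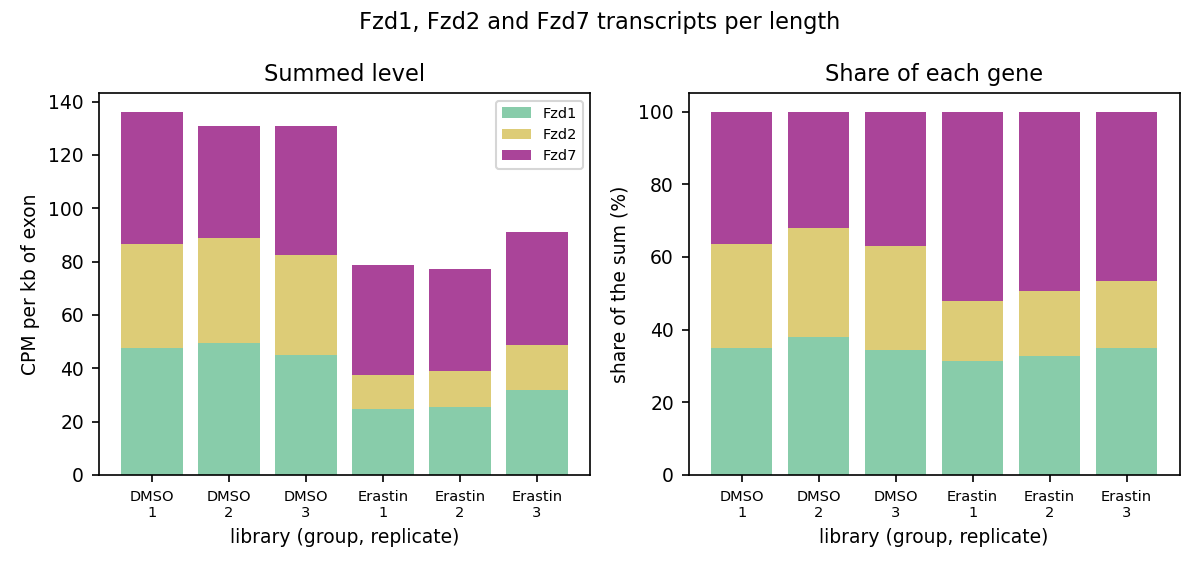
Left, CPM per kb of exon of Fzd1, Fzd2 and Fzd7 stacked for each library; right, the same as a percentage of their sum. The erastin bars on the left are all lower than the DMSO bars, and the Fzd7 part on the right is 46.6% to 52.2% with erastin against 32.1% to 36.9% in DMSO.

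Sfrp1 encodes a secreted protein with a frizzled-like domain that binds WNTs. Sfrp1 (ENSMUSG00000031548.7; GRCm38 chromosome 8, 23411502 to 23449632, + strand) was read at 310, 331 and 357 CPM in DMSO and at 103, 94.2 and 110 CPM with erastin. The lowest DMSO value was far above the highest erastin value compared with the spread of either group (log2 fold change -1.70, SE 0.08, 95% confidence interval -1.88 to -1.53, edgeR adjusted p = 1.44e-09). Its relative Sfrp2 (ENSMUSG00000027996.9; GRCm38 chromosome 3, 83766321 to 83774316, + strand) had only 77 to 99 reads per DMSO library and 14 to 55 per erastin library. It was read at 7.47, 4.26 and 6.45 CPM in DMSO and at 1.58, 0.837 and 2.85 CPM with erastin, which did not overlap although each group spread widely. Its log2 fold change of -1.77 was the least precise of the 10 (SE 0.42, 95% confidence interval -2.66 to -0.88, edgeR adjusted p = 0.00341). An antisense gene, Gm26771, overlaps 16.1% of the Sfrp2 exon bases and had 1 read in the 6 libraries together. The log2 ratio of Sfrp2 to Sfrp1 was -5.81 ± 0.45 in DMSO and -6.01 ± 0.75 with erastin (SD, n = 3 each; exact permutation test, two-sided, p = 0.8, adjusted 0.8).

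DKK2 binds the LRP5 and LRP6 co-receptors. Dkk2 (ENSMUSG00000028031.5; GRCm38 chromosome 3, 132085292 to 132180304, + strand) was read at 30.6, 36.9 and 38.3 CPM in DMSO and at 18.5, 17.3 and 17.9 CPM with erastin. The erastin libraries lay close together at 50.7% of the DMSO level (log2 fold change -0.98, SE 0.13, 95% confidence interval -1.25 to -0.71, edgeR adjusted p = 2.12e-05). Dkk3 (ENSMUSG00000030772.5; GRCm38 chromosome 7, 112116017 to 112159057, - strand) was read at 173, 185 and 206 CPM in DMSO and at 42.0, 44.2 and 47.2 CPM with erastin. The erastin libraries lay close together and far under the DMSO libraries (log2 fold change -2.08, SE 0.09, 95% confidence interval -2.27 to -1.89, edgeR adjusted p = 8.3e-10), and 1.86% of all genes tested had a lower log2 fold change. The log2 ratio of Dkk2 to Dkk3 counts was -2.50, -2.32 and -2.42 in DMSO and -1.19, -1.35 and -1.40 with erastin. The difference of 1.10 came with no overlap (exact permutation test, two-sided, p = 0.1, the smallest this design allows, adjusted 0.2). Dkk1, another Dickkopf gene and a known β-catenin target, had at most 1 read in any library, and Dkk4 had none.

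Levels of different genes were compared per kilobase of exon, as CPM per kb. In DMSO the order was Sfrp1 (76.1 ± 5.34), Dkk3 (55.9 ± 4.93), Fzd1 (47.4 ± 2.30), Fzd7 (46.7 ± 4.09), Fzd2 (38.6 ± 0.865), Wnt5a (14.3 ± 0.987), Dkk2 (9.53 ± 1.10), Ror2 (7.59 ± 1.78), Ror1 (2.87 ± 0.274) and Sfrp2 (2.82 ± 0.761) (SD, n = 3 each). In this order the ranges of Fzd1 and Fzd7, of Dkk2 and Ror2, and of Ror1 and Sfrp2 overlapped. Within each DMSO library Dkk2 was still above Ror2 (8.269 and 6.475, 9.966 and 6.642, 10.34 and 9.639 CPM per kb). The other overlapping pairs changed order between DMSO libraries. Differences between neighbours were not tested. With erastin Fzd7 led the order at 40.6 ± 2.23 CPM per kb, followed by Fzd1 (27.3 ± 4.04), Sfrp1 (23.4 ± 1.78), Fzd2 (14.4 ± 1.98), Dkk3 (13.2 ± 0.776), Wnt5a (5.62 ± 0.558), Dkk2 (4.83 ± 0.151), Ror2 (3.94 ± 0.934), Ror1 (1.01 ± 0.108) and Sfrp2 (0.815 ± 0.472) (SD, n = 3 each). Here the ranges of Fzd1 and Sfrp1, of Fzd2 and Dkk3, of Dkk2 and Ror2, and of Ror1 and Sfrp2 overlapped. Within each erastin library Fzd1 was above Sfrp1 and Fzd2 above Dkk3, while the other overlapping pairs changed order. Sfrp1 and Dkk3, at the head of the order in DMSO, both stood lower in that order with erastin.

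The rest of the WNT pathway was described with 7 lists of 123 distinct genes, 113 of them outside the 10. Of these 113 genes, 87 could be tested, and 36 were lower and 10 higher (by the same rule over all genes tested), with a median log2 fold change of -0.42 against -0.0014 for all genes. Among all genes tested, 21.5% were called lower and 21.6% higher. These lists too were chosen with earlier results of these data known, so the contrast with all genes is a description only. Counts in the lists below leave out the 10 genes already described. Some genes belong to several lists and are counted in each.

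Of 18 other WNT ligand genes 9 could be tested, and 4 were lower and 1 higher. Wnt2b went from 9.13 ± 1.08 to 1.81 ± 0.364 CPM (SD, n = 3), by -2.33 in log2 terms (adjusted p = 1.28e-05, edgeR), Wnt9a changed by -1.14 (edgeR adjusted p = 0.000129) and Wnt4 by -0.997 (edgeR adjusted p = 0.000197). Wnt11, a ligand known for polarity signalling, moved the other way, from 4.86 ± 0.389 to 10.9 ± 1.68 CPM (SD, n = 3), by 1.16 ± 0.22 (SE) in log2 terms (adjusted p = 0.000658, edgeR). The other 9, Wnt1, Wnt3, Wnt3a, Wnt6, Wnt7a, Wnt7b, Wnt8a, Wnt8b and Wnt9b, were below the filter on low counts.

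Of 14 other receptor and co-receptor genes 11 could be tested, and 6 were lower and 0 higher (0 at an unadjusted p-value under 0.05, and 0 by DESeq2 or limma voom). The count of 6 was 3 without erastin replicate 1. Ptk7, a pseudokinase receptor of the polarity branch, went from 669 ± 42.5 to 326 ± 20.6 CPM (SD, n = 3), by -1.04 ± 0.07 (SE) in log2 terms (adjusted p = 6.41e-08, edgeR). Ryk, a WNT-binding receptor, changed by -0.55 and Fzd6 by -1.01 in log2 terms (adjusted p = 1.49e-05 and 8.05e-05, edgeR). Fzd9, Fzd10 and Musk were below the filter.

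Of 16 other secreted antagonist and related genes only 6 could be tested, and 2 were lower and 0 higher (0 at an unadjusted p-value under 0.05, and 0 by DESeq2 or limma voom). Igfbp4, an insulin-like growth factor binding protein that also binds frizzleds, went from 416 ± 7.64 to 145 ± 19.5 CPM (SD, n = 3), by -1.52 ± 0.09 (SE) in log2 terms (adjusted p = 8.87e-09, edgeR). Apcdd1, a membrane inhibitor of WNT signalling, changed by -1.05 (edgeR adjusted p = 0.00118). Sfrp5, Wif1, Dkk1, Dkk4, Dkkl1, Sost, Sostdc1, Cer1, Draxin and Kremen2 were below the filter.

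Of 13 genes for WNT secretion and R-spondin signalling, which amplifies WNT responses, 11 could be tested, and 7 were lower and 0 higher (0 at an unadjusted p-value under 0.05, and 0 by DESeq2 or limma voom). The R-spondin receptor gene Lgr5 went from 55.9 ± 0.897 to 21.9 ± 6.80 CPM (SD, n = 3), by -1.35 ± 0.16 (SE) in log2 terms (adjusted p = 1.03e-05, edgeR), Lgr4 changed by -0.71 and the glypican gene Gpc4 by -0.58 (edgeR adjusted p = 2.34e-05 and 3.55e-05). Rspo1 and Rspo4 were below the filter.

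Of 20 core genes of the β-catenin branch 19 could be tested, and 5 were lower and 3 higher. With 21.5% of all genes tested called lower and 21.6% higher, these counts are not read as a result about the core genes. The count of 5 was 8 with a correction for trends with GC content and length (the GC and length offset) together with the replicate number as a block. Those higher were Gsk3b (log2 fold change 0.53), Apc (0.40) and Dvl2 (0.42), of which the first pair belong to the complex that degrades β-catenin (edgeR adjusted p = 7.95e-05, 0.00173 and 0.00428). The smallest p-values among those lower were of the transcription factor gene Tcf7l2 (-1.01) and the co-activator genes Pygo2 (-0.45) and Bcl9l (-0.39) (edgeR adjusted p = 8.95e-05, 0.00138 and 0.00645). Ctnnb1, which encodes β-catenin and was chosen after its values were seen, had a log2 fold change of -0.16 that did not pass (edgeR adjusted p = 0.0634). Lef1 was below the filter.

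Of 16 genes known as β-catenin targets 13 could be tested, and 7 were lower and 1 higher. Lgr5 and Apcdd1, among those lower, were already counted in lists above. Ccnd1, Lgr5 and Ccn4 had the smallest p-values among those lower, with log2 fold changes of -0.59, -1.35 and -0.48 (edgeR adjusted p = 8.16e-06, 1.03e-05 and 2.98e-05). Axin2, a negative-feedback target named here after its values were seen, was read at 14.0, 15.4 and 16.9 CPM in DMSO and at 1.91, 2.99 and 5.39 CPM with erastin (log2 fold change -2.17, edgeR adjusted p = 3.69e-05). Myc, a gene for a growth-promoting transcription factor, went from 46.6 ± 3.95 to 131 ± 14.9 CPM (SD, n = 3), by 1.49 ± 0.10 (SE) in log2 terms (adjusted p = 4.24e-08, edgeR). Sp5, Lef1 and Dkk1 were below the filter.

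All 24 genes of the planar polarity branch, in which WNT5A and the ROR receptors act, could be tested, and 7 were lower and 5 higher. Over all genes tested, 21.5% were called lower and 21.6% higher, so these counts are not read as a result about the branch. The count of 5 was 3 without erastin replicate 1 and 2 with the GC and length offset. Fat4, an atypical cadherin, went from 245 ± 15.5 to 114 ± 16.1 CPM (SD, n = 3), by -1.11 ± 0.10 (SE) in log2 terms (adjusted p = 3.89e-07, edgeR), and the core polarity genes Prickle1 and Prickle2 changed by -0.90 and -0.88 (edgeR adjusted p = 9.35e-06 and 1.70e-05). Daam1, a formin that links Dishevelled to the RHOA GTPase, was higher, from 56.4 ± 8.42 to 137 ± 7.11 CPM (SD, n = 3), by 1.28 ± 0.10 (SE) in log2 terms (adjusted p = 2.2e-07, edgeR). Mapk8 (0.60) and Rhoa (0.30) were higher too (edgeR adjusted p = 0.00403 and 0.00336), but neither passed with the GC and length offset (edgeR adjusted p = 0.0677 and 0.0636).

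**Figure D4:**
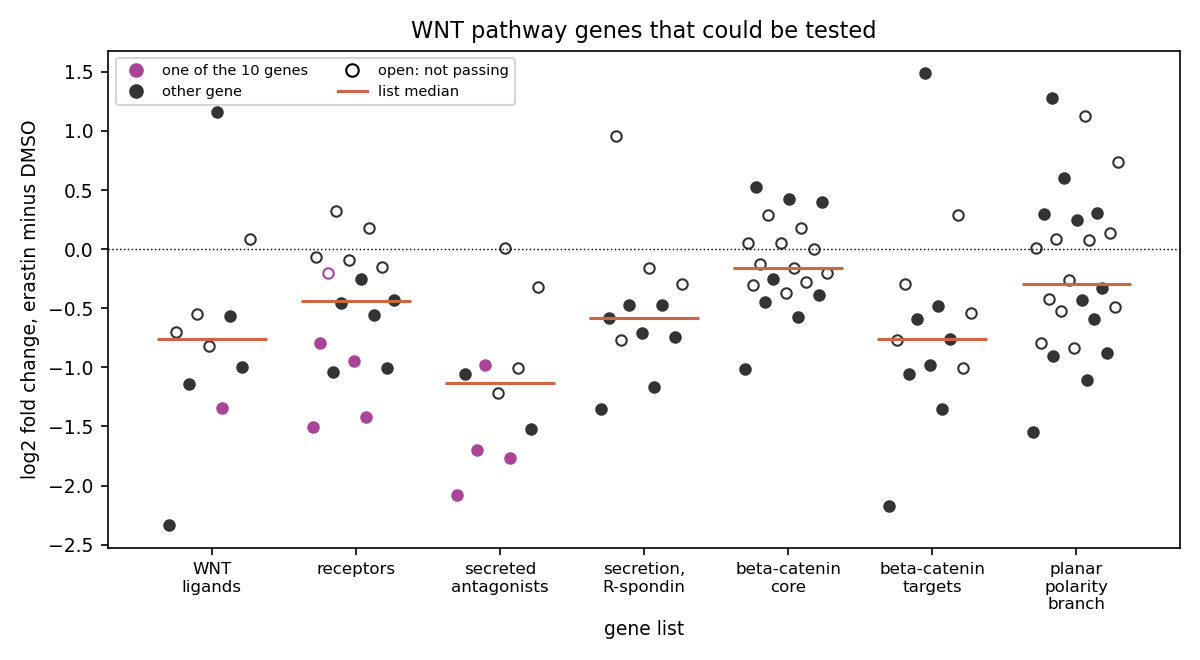
Log2 fold change, erastin minus DMSO, of every gene that could be tested in 7 WNT pathway lists, with the 10 genes in purple, open circles for genes that did not pass and an orange line at each list's median over all its tested genes. The medians run from -1.14 for the secreted antagonists to -0.16 for the β-catenin core, and the points farthest above 0 that passed are Myc, Daam1 and Wnt11.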

How the data were processed

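The deposited table held raw read counts per gene, made by the authors, for 43346 genes and 6 libraries, with no further value columns. The submitters' processing notes name HTSeq 0.9.1, SAMtools and the build mm10. The aligner, annotation release and strand setting are not given in the sources used here. Per the labels' protocols, libraries were amplified by PCR and sequenced on an Ion Proton. No molecular identifiers are described, so counts may include PCR copies. The edgeR SEs, intervals and p-values rest on the spread between these libraries as well as on counting error.

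Identifiers were matched without version to GENCODE M21 (GRCm38, the assembly also called mm10), and 42462 had a symbol. Exon lengths come from there and may differ from the models counted. Of the 50-base words in each gene's longest transcript, at most 0.278% occurred in transcripts of other genes, apart from Sfrp2. For Sfrp2 it was 12.9%, all in transcripts of 1 other gene. A count of 3 was worth 0.140 to 0.233 CPM per library.

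In R 4.3.3, edgeR 4.0.16 (with limma 3.58.1) was used with filterByExpr (minimum count 10 in at least 3 libraries, total 15; 14000 genes kept), TMM factors, and the quasi-likelihood test with treatment as the only term, adjusted over all genes (Benjamini-Hochberg, threshold 0.05). CPM uses the TMM-scaled library sizes. Ratios between 2 genes used counts plus 0.5 and an exact permutation test (scipy 1.17.1). Alternatives were RLE, upper-quartile and total-count scaling, other filters, a replicate block, DESeq2 1.42.0, limma voom, a GC and length offset (mgcv 1.9.3), thinning, a threshold of 0.01, a pseudocount of 5 and leaving out each library. The fits were tested on simulated data.

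The members and lists were chosen with earlier results of these data known. Named genes were the 10 members and, of each pathway list, up to 3 others higher and 3 lower with the smallest p-values among those passing. Others are said to have been chosen after their values were seen. The GC, CCAAT and TATA box motifs were chosen after the sequences were seen.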

Additional observations from a re-analysis of the deposited data

How the results depend on the processing

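Under the 18 alternatives the number of the 10 genes passing as lower was 9 or 10, and none passed as higher. Fzd7 was the gene that changed side. The 9 called genes kept their direction and stayed under the threshold in their 17 alternatives each, with the highest adjusted p-values for Sfrp2 (0.0217) and Ror2 (0.00885). The number of all genes passing ran from 4305 to 6130 against 6027, and genes higher made up 50.2% of those called, or 44.0% under upper-quartile scaling and 57.1% under total-count scaling, which moved the median over all genes to -0.055 and 0.065 (log2). With the replicate block 5883 genes passed, 9 of the 10 among them, all lower, and it changed no call of the 10. Libraries with equal numbers had correlations of -0.0055 to 0.040 in their deviations from the group means, against -0.045 to 0.035 for different numbers, so not every library correlated best with its own number. The difference in the log2 ratio of Sfrp2 to Sfrp1, reported as -0.20, was 0.019 without DMSO replicate 1 and 0.18 without erastin replicate 2, and ran from -0.58 to 0.18 when 1 library was left out. That of Wnt5b to Wnt5a, reported as 0.28, was -0.22 without erastin replicate 1 and -0.028 without erastin replicate 2, and ran from -0.22 to 1.07. The causes were not tested. Sfrp2 and Wnt5b had at most 99 and 86 reads in a library.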
